A study of Arabidopsis thaliana with 6 samples.

Results

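Petioles are the leaf stalks of Arabidopsis thaliana. In 4 genes chosen from this series, which encode members of wall and apoplast enzyme families, transcript levels were lower in petioles of plants crowded into a canopy than in petioles of plants grown apart. They are AT3G53190 (pectin lyase-like), AT1G78060 (beta-xylosidase), AT4G33420 (peroxidase) and AT5G07030 (aspartyl protease). Each locus was represented by its 1-gene probe set, and none had a second one. They are 4 of 13286 genes that could be followed by name, and each was chosen because it was lower in the canopy on these arrays. Their difference between the groups is therefore given as a description, without a test.

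RNA was hybridised to 6 Affymetrix 3′ expression arrays, 3 for each group. The plants stood in individual pots from 10 days after the start, under 9 h of light and 15 h of dark at 20°C. The pots were either kept separate (single plants, the controls) or packed at once to 2066 plants per m2 (canopy), and petioles were taken at about 23 days, when the leaf area per ground area of the canopies had reached 0.9. Each array carries RNA pooled from 4 plants, with 2 young petioles of each. The labels name no accession, mutation, transgene or chemical treatment for either group.

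Plant cells sit in a wall of cellulose fibres set in pectins and hemicelluloses, and the space outside the plasma membrane, the apoplast, holds enzymes that cut, trim or cross-link these polymers. Petioles of Arabidopsis lengthen when plants sense neighbours, and growth of a cell goes with a change in its wall. Pectin lyase-like proteins share the fold of enzymes that cut the galacturonan backbone of pectin. Beta-xylosidases remove xylose from the ends of xylan chains and their fragments. Plant secretory peroxidases use hydrogen peroxide to oxidise phenolics, which can cross-link the wall, or make reactive oxygen. Aspartyl proteases of the pepsin type cleave proteins, and many of the plant enzymes are secreted. The arrays measured transcripts, and neither enzyme activity, protein location nor wall composition was measured.

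All 4 genes had every canopy array below every single-plant array. That pattern was found in 9.3% of the 22746 probe sets tested, but here it follows from how the genes were chosen. All 4 were also among the 57 probe sets called lower in the canopy at a limma adjusted p under 0.05, which is 0.251% of the probe sets tested; the genes were taken from this comparison, so nothing is read from that count. Without canopy replicate 2, or without single replicate 1, 2 or 3, 0 of the 4 were among the calls, and without canopy replicate 1 or 3 there were 3. The canopy levels were 1.49-fold to 2.52-fold lower. The difference was largest for AT3G53190, followed by AT5G07030 and then by AT4G33420 and AT1G78060. The place of AT4G33420 in that order is also uncertain because its canopy values lay near the low end of the scale, which may understate its difference.

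AT3G53190, the pectin lyase-like gene, had RMA expression values of 3.47, 3.98 and 3.40 on single-plant arrays 1, 2 and 3, and of 2.56, 2.28 and 2.01 on canopy arrays 1, 2 and 3 (log2). Single replicate 2 was the highest array, and canopy replicate 3 the lowest. The group means were 3.61 ± 0.31 in single plants and 2.28 ± 0.28 in the canopy (log2, SD, n = 3). The canopy level was 39.7% of the single-plant level, a difference of -1.33 ± 0.18 (log2, SE), with a 95% interval of the fold from 1.89 to 3.36. Among the 24 named genes called lower it had the largest decrease, and its spread within groups was also wide. Its pooled within-group SD was 0.296, above that of 94.97% of the probe sets, whose median was 0.133 (log2).

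AT5G07030, the aspartyl protease gene, had values of 5.53, 5.42 and 5.54 on the single-plant arrays and of 4.71, 4.35 and 4.19 on the canopy arrays (log2, replicates 1, 2 and 3). The single-plant arrays lay close together, within 0.119 of each other, while the canopy arrays spanned 0.512. The means were 5.50 ± 0.06 and 4.42 ± 0.26 (log2, SD, n = 3). The canopy level was 47.3% of that in single plants, a difference of -1.08 ± 0.13 (log2, SE) with a 95% interval of the fold from 1.72 to 2.60. The lowest single-plant array still lay 0.718 above the highest canopy array (log2).

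AT4G33420, the peroxidase gene, stood low on the scale of these arrays. Its values were 1.77, 1.47 and 1.62 on the single-plant arrays and 0.926, 0.795 and 0.907 on the canopy arrays (log2, replicates 1, 2 and 3). The canopy values were at the 14.5th to 30.5th percentile of all values on their arrays, and the single-plant values at the 53.9th to 60.5th. Detection calls were not used and the scale has no known zero, so whether the canopy petioles held any of this transcript cannot be said. The means were 1.62 ± 0.15 and 0.876 ± 0.071 (log2, SD, n = 3), a difference of -0.75 ± 0.10 (log2, SE), or 1.68-fold with a 95% interval from 1.43 to 1.97.

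AT1G78060, the beta-xylosidase gene, had values of 5.17, 5.28 and 5.15 on the single-plant arrays and of 4.56, 4.77 and 4.53 on the canopy arrays (log2, replicates 1, 2 and 3). Replicate 2 was the highest in both groups, and the gap between the groups, 0.376, was the smallest among the 4 genes. The means were 5.20 ± 0.07 and 4.62 ± 0.13 (log2, SD, n = 3). The canopy level was 66.9% of the single-plant level, a difference of -0.58 ± 0.10 (log2, SE) with a 95% interval of the fold from 1.28 to 1.75. AT1G78060 was not among the probe sets called lower with the replicate number as a block in the limma fit, with equal array medians, with robust moderation and an intensity trend, with 1-gene probe sets alone or when any one array was left out.

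**Figure D1:**
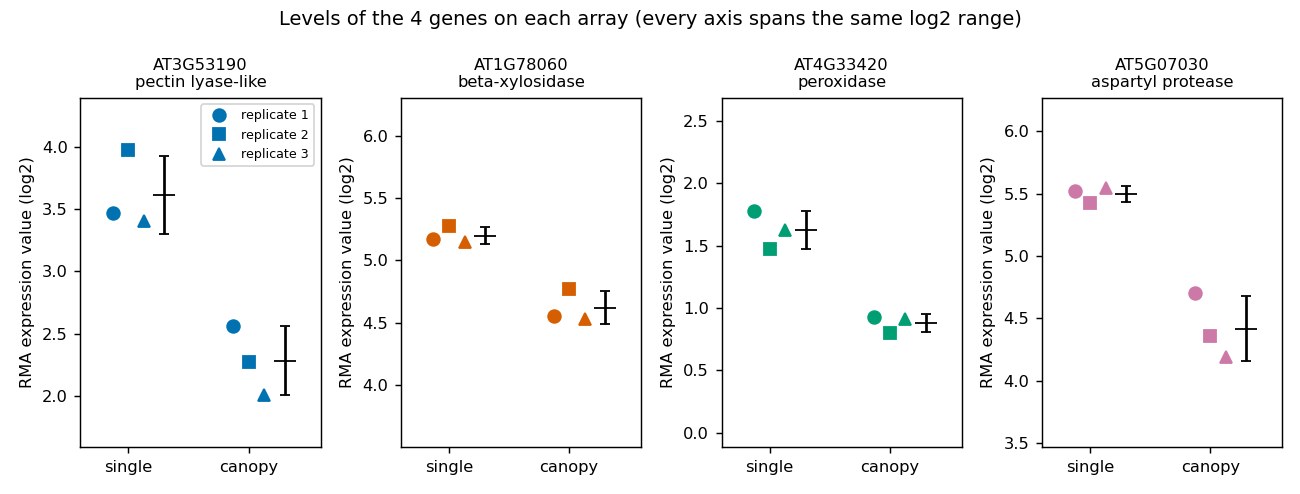
RMA expression values (log2) of the 4 genes on each array, with symbols for replicates 1 to 3 and, beside them, the group mean with its SD (n = 3). In every panel the 3 canopy arrays lie below the 3 single-plant arrays, with gaps from 0.376 (AT1G78060) to 0.843 (AT3G53190).

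**Figure D2:**
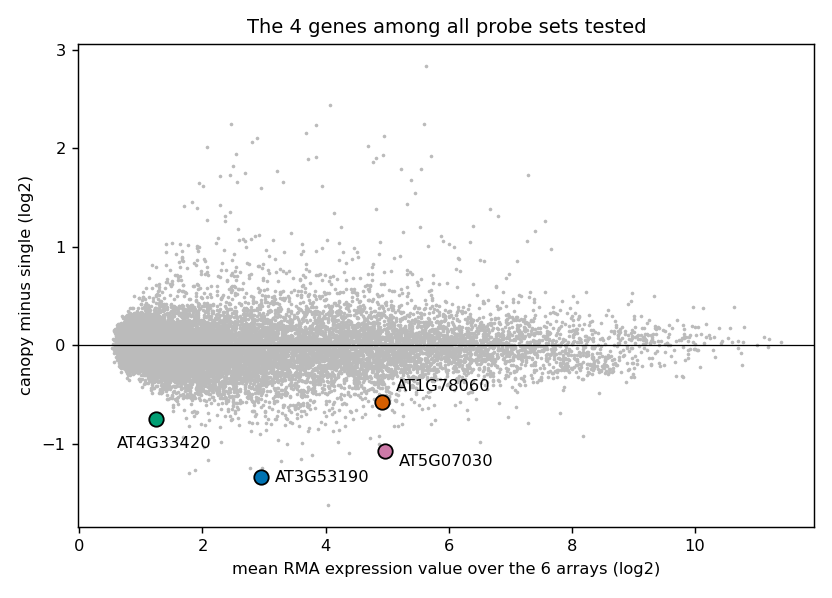
Difference between canopy and single plants (log2) against the mean value over the 6 arrays (log2) for the 22746 probe sets tested, with the 4 genes in colour. AT3G53190 and AT5G07030 lie near the lower edge at mid levels, AT4G33420 lies near the low end of the scale, and AT1G78060 lies closest to the bulk of the probe sets.

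In pooled tissue, fewer cells of a type and less RNA per cell cannot be told apart. Of 30 marker genes listed for xylem, phloem, epidermis, guard cells, trichomes, green tissue, meristem and root, 2 were measured under a name, so the tissue could not be checked by its defining markers. The guard-cell regulator FAMA ranged from 1.16 to 1.39 in single plants and from 1.28 to 1.69 in the canopy, and the meristem signal CLV3 from 0.745 to 0.819 and from 0.516 to 0.841 (log2). Neither passed the limma test (adjusted p = 0.55 and 0.75). The CLV3 values lay near the low end of the scale, so no change in meristem content can be read from them. On the second principal component of all probe sets, canopy replicate 1 stood apart at -22.61, against -4.15 to 15.87 on the other arrays. An actin control had a 3′ minus 5′ difference, a sign of RNA quality, of 1.28 to 1.503 in the canopy and 1.53 to 1.71 in single plants (log2), and the poly-A spike dap ranged from 3.22 to 3.55 and from 3.65 to 3.82. The upper quartile of all values ran from 2.951 to 2.959 in the canopy and from 2.990 to 3.001 in single plants (log2). For each of these measures every canopy array was below every single-plant array (exact permutation p = 0.1, two-sided, the smallest that 3 against 3 allow), and their part in the differences of the 4 genes was not tested. Without canopy replicate 1, the canopy levels were 2.78-fold lower for AT3G53190, 2.33-fold for AT5G07030, 1.71-fold for AT4G33420 and 1.46-fold for AT1G78060.

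Within the groups, the 4 genes did not share one pattern over the arrays. In the canopy, AT3G53190 and AT5G07030 were both highest on replicate 1, at 0.28 and 0.29 above their group means, and both lowest on replicate 3, at -0.27 and -0.22 (log2). The peroxidase gene was also highest on canopy replicate 1, but by 0.05, and the beta-xylosidase gene stood at -0.06 there and was highest on replicate 2, at 0.15. In single plants, replicate 2 held the highest value of AT3G53190 (0.36 above its group mean) and of AT1G78060 (0.08). It held the lowest value of AT4G33420 (-0.15) and of AT5G07030 (-0.07).

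Over the 6 arrays, deviations from the group means had the same sign on 4 arrays for AT3G53190 and AT1G78060 and on 4 for AT4G33420 and AT5G07030, the highest counts among the 6 pairs of genes. AT1G78060 had the same sign as AT4G33420 on 1 array and as AT5G07030 on 1 array. AT3G53190 and AT5G07030 agreed in sign on all 3 canopy arrays and on 0 single-plant arrays. Some of these signs rest on very small deviations, such as -0.0045 for AT3G53190 on canopy replicate 2 and -0.00085 for AT4G33420 on single replicate 3 (log2). The values of a group share its mean, so these counts are a description. With the group difference included, the average of the 4 values was 3.98, 4.04 and 3.93 on the single-plant arrays and 3.19, 3.05 and 2.91 on the canopy arrays (log2, replicates 1, 2 and 3), which reflects the choice of the genes.

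**Figure D3:**
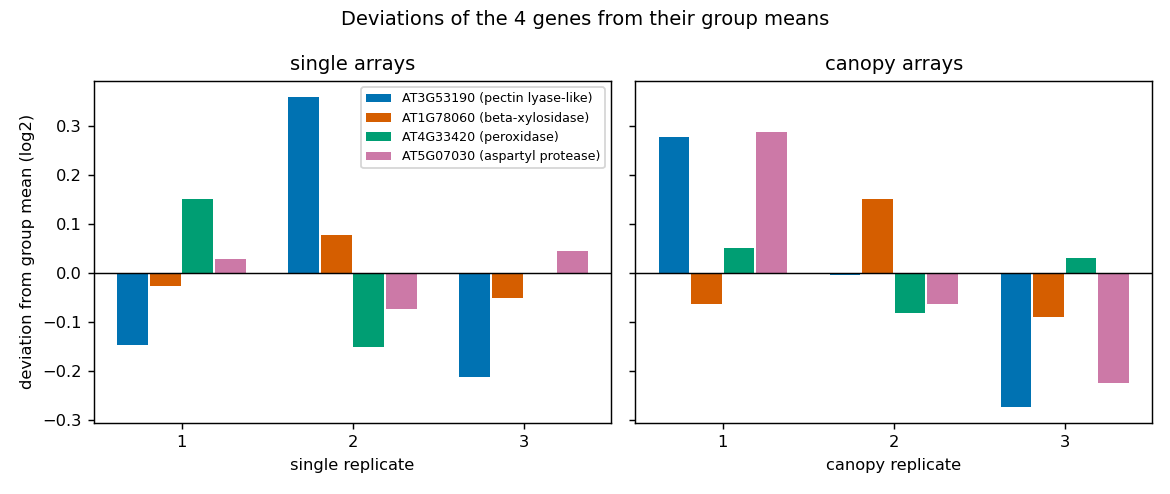
Deviation of each gene from its group mean (log2) on each array, single plants on the left and canopy on the right, with bars coloured by gene. AT3G53190 and AT5G07030 are both high on canopy replicate 1 and low on canopy replicate 3, and the 4 genes deviate in both directions on single replicate 2.

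The named genes nearest in profile to each of the 4 were found among 13509 other 1-gene probe sets. Nearness was the root mean square difference over the 6 arrays, after each profile was centred on its own mean. Such profiles include the group difference for which the 4 genes were chosen, so a decrease of like size brings a gene near. Of the 7 distinct genes found, 5 were among the probe sets called lower, against 0.181% of the named genes. Nothing is read from that count, as the search itself favours genes with such a decrease. AT2G33850 lay nearest to AT3G53190, at 0.114 (log2). Its values were 2.50, 2.64 and 2.17 in single plants and 1.38, 1.11 and 0.933 in the canopy (replicates 1, 2 and 3), so it too was highest on single replicate 2 and on canopy replicate 1. EXO (EXORDIUM), a gene that responds to brassinosteroids and promotes leaf growth, was nearest to AT5G07030, at 0.0954, and second nearest to AT3G53190, at 0.241. Its canopy arrays stood at 2.43, 2.14 and 1.89 and its single-plant arrays at 3.38, 3.30 and 3.52 (log2). In single plants EXO was lowest on replicate 2 and highest on replicate 3, the reverse of AT3G53190. AT4G29020 was second nearest to AT5G07030, at 0.182, with an SD of 0.538 in the canopy and 0.053 in single plants.

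GH9B13, an endoglucanase of glycosyl hydrolase class 9, a family that cuts glucan chains, was nearest to the peroxidase gene, at 0.0937 (log2). Its level was 1.74-fold lower in the canopy, with means of 2.38 ± 0.12 in single plants and 1.58 ± 0.15 in the canopy (log2, SD, n = 3). HLL (HUELLENLOS), a mitochondrial ribosomal protein needed for ovule development, followed at 0.0955. AT1G75280 was nearest to the beta-xylosidase gene, at 0.0476, with means of 6.48 ± 0.10 and 5.90 ± 0.10 (log2, SD, n = 3), and AT1G02816 followed at 0.0608. When profiles were compared by deviations from the group means alone, 0 of these 8 pairings were found again.

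**Figure D4:**
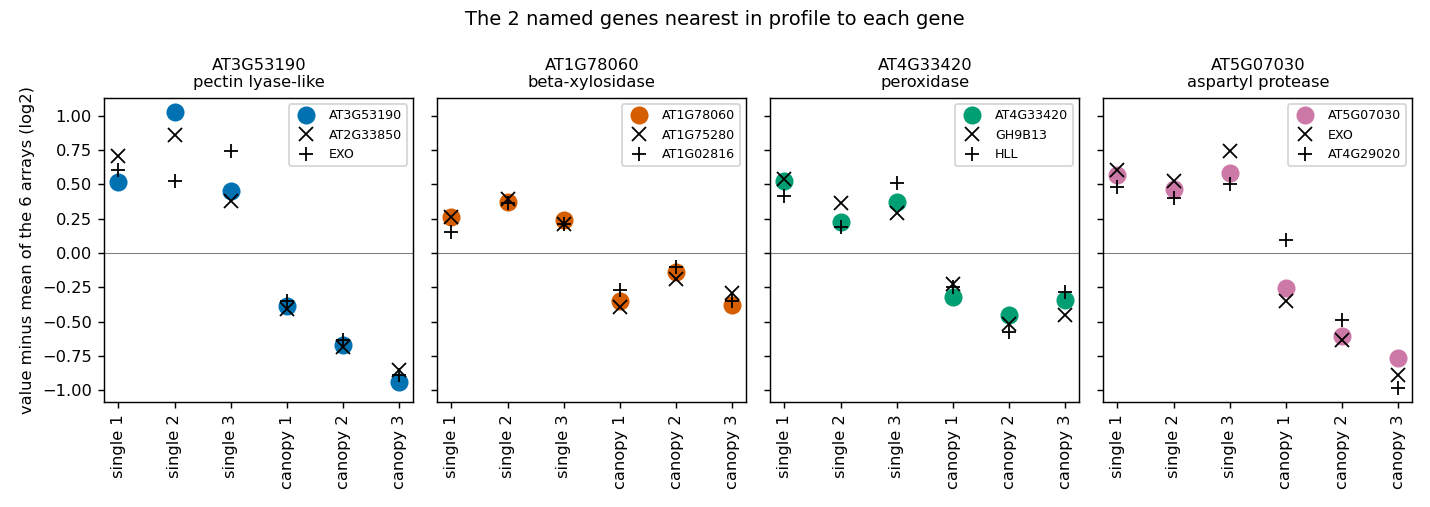
Values minus the mean of the 6 arrays (log2) for each of the 4 genes (coloured circles) and the 2 named genes nearest to it in profile (crosses and plus signs). AT2G33850 and EXO follow AT3G53190 and AT5G07030 over the canopy arrays, and AT1G75280 lies within 0.0476 (root mean square) of AT1G78060.

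The genes on either side of the 4 in the RefSeq order were examined where they had a named probe set, as 3 of 8 did. AT1G78050 (PGM), annotated as a phosphoglycerate mutase, overlaps AT1G78060 in the annotation, and its canopy minus single difference was -0.14 ± 0.14 (log2, SE; limma adjusted p = 0.77). The neighbours of AT5G07030 were AT5G07020, at 0.08 ± 0.12, and AT5G07040, at -0.13 ± 0.08 (log2, SE; limma adjusted p = 0.87 and 0.59). AT1G78060 also overlaps AT1G09777, a long non-coding RNA gene without a named probe set here. AT4G33420 overlaps BAK1, a co-receptor of brassinosteroid and immune receptors, in the annotation, but BAK1 had no named probe set here. Where on these genes the probes lie was not analysed here.

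The other measured genes of these families, and of other lists drawn up for the wall, were then compared between canopy and single plants. The 36 measured genes came from 10 of the 12 lists. Of these 36, 0 were called lower and 0 higher (limma, adjusted p under 0.05 over all probe sets). Of 13286 named genes, 0.181% were called lower and 0.324% higher. An unadjusted p under 0.05 was found for 8 of the 36, and for 10.8% of the named genes. The groups did not overlap for 8 of the 36, and for 15.8% of the named genes. The median difference was -0.03 over the 36 and -0.0017 over the named genes (log2). A count of 0 among 36 genes is near that background.

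The mean level of 14 of the 36 lay at or below 0.926, the highest canopy value of AT4G33420, near the low end of the scale.

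The families of the 4 genes were thinly covered. Of the 17 class III peroxidases found by name, 7 were measured, and 6 of these were higher and 1 lower by any size, with a median of 0.08 and a range from -0.01 to 0.22 (log2). Of the 7, 4 had a mean level at or below 0.926, so this count rests mostly on values near the low end. PRXR1 had a mean of 9.78 ± 0.20 in single plants and 9.85 ± 0.16 in the canopy (log2, SD, n = 3; limma adjusted p = 0.88). The 2 peroxidases with the smallest p were AT2G41480 (peroxidase 25), at 0.16 ± 0.12, and AT5G64120 (peroxidase 71), at 0.22 ± 0.23 (log2, SE; limma adjusted p = 0.68 and 0.80). Without single replicate 1 the first was at 0.057, and without canopy replicate 1 the second was at -0.10. Of the 8 genes in the list of beta-xylosidases and arabinofuranosidases, 2 were measured: AT5G10560 differed by -0.04 ± 0.12 and AT3G19620 by -0.09 ± 0.09 (log2, SE; limma adjusted p = 0.94 and 0.77). The mean level of AT3G19620 was 0.970, also near the low end of the scale. The one measured aspartic proteinase of 3, APA1, differed by 0.05 ± 0.09 (log2, SE; limma adjusted p = 0.90). No further pectate or pectin lyase could be found by name.

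Among other pectin enzymes, 4 of the 27 genes in the list of pectin methyl- and acetylesterases were measured. All 4 are named pectin methylesterases, which strip methyl groups from pectin. They were all higher in the canopy by any size, with a median of 0.24 (log2), and 0 passed the test. Among all named genes 49.4% were higher by any size. AT4G02300, named after its values were seen, had a mean level of 0.870 and differed by 0.02 (log2). PMEPCRF (AT5G53370) had the smallest p, with 6.65 ± 0.08 in single plants and 7.08 ± 0.34 in the canopy (log2, SD, n = 3; limma adjusted p = 0.30). PME61 differed by 0.21 ± 0.11 (log2, SE; limma adjusted p = 0.48). None of the 10 polygalacturonases had a named probe set.

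Among the 4 measured subtilases of 8, which are serine proteases, many of them secreted, SBT1.3 had means of 2.36 ± 0.08 in single plants and 1.76 ± 0.33 in the canopy (log2, SD, n = 3; limma adjusted p = 0.14). SBT3.12 differed by -0.32 ± 0.13 (log2, SE; limma adjusted p = 0.36). Both had groups that did not overlap, as had 8 of the 36 list genes and 15.8% of the named genes. Neither passed the test. The laccases and SKU5-like oxidases had 5 measured genes of 35, of which 4 had a mean level at or below 0.926, all but SKU5. SKU5, an anchored glycoprotein that affects directional root growth, differed by -0.23 ± 0.09 and sks18, a relative of it near the low end of the scale, by -0.08 ± 0.09 (log2, SE; limma adjusted p = 0.35 and 0.81).

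In wall polymer synthesis, 82 genes were named for cellulose synthases, their relatives and galacturonosyltransferases, and 9 of them were measured. The measured ones were cellulose synthase-like genes and GAUT15, so no cellulose synthase itself was covered. Of the 9, 8 were lower in the canopy by any size, against 50.6% of the named genes, with a median of -0.20 (log2). An unadjusted p under 0.05 was found for 4 of the 9, against 10.8% of the named genes. The groups did not overlap for 4 of the 9, against 15.8% of the named genes. Of the 9, 0 were called, and this list is one of those added once the names were seen. The mean level of 2 of the 9 lay at or below 0.926, near the low end of the scale. CSLA03, of a family that makes mannan backbones, had 2.21 ± 0.15 in single plants and 1.72 ± 0.14 in the canopy (log2, SD, n = 3; limma adjusted p = 0.11). CSLC6, of the family that makes the xyloglucan backbone, differed by -0.28 ± 0.08 (log2, SE; limma adjusted p = 0.19). GUT2 (AT1G27440, also IRX10), a xylan synthesis gene and the one measured of 13, differed by -0.06 ± 0.09, and BGAL16, the one measured beta-galactosidase of 17, by -0.07 ± 0.09 (log2, SE; limma adjusted p = 0.86 and 0.83). The words for structural wall proteins matched 104 genes, of which 2 were measured. Both are named basic proline-rich proteins and are not known as structural parts of the wall: AT3G09000 differed by -0.03 ± 0.17 and AT5G01280 by 0.18 ± 0.11 (log2, SE; limma adjusted p = 0.97 and 0.56).

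**Figure D5:**
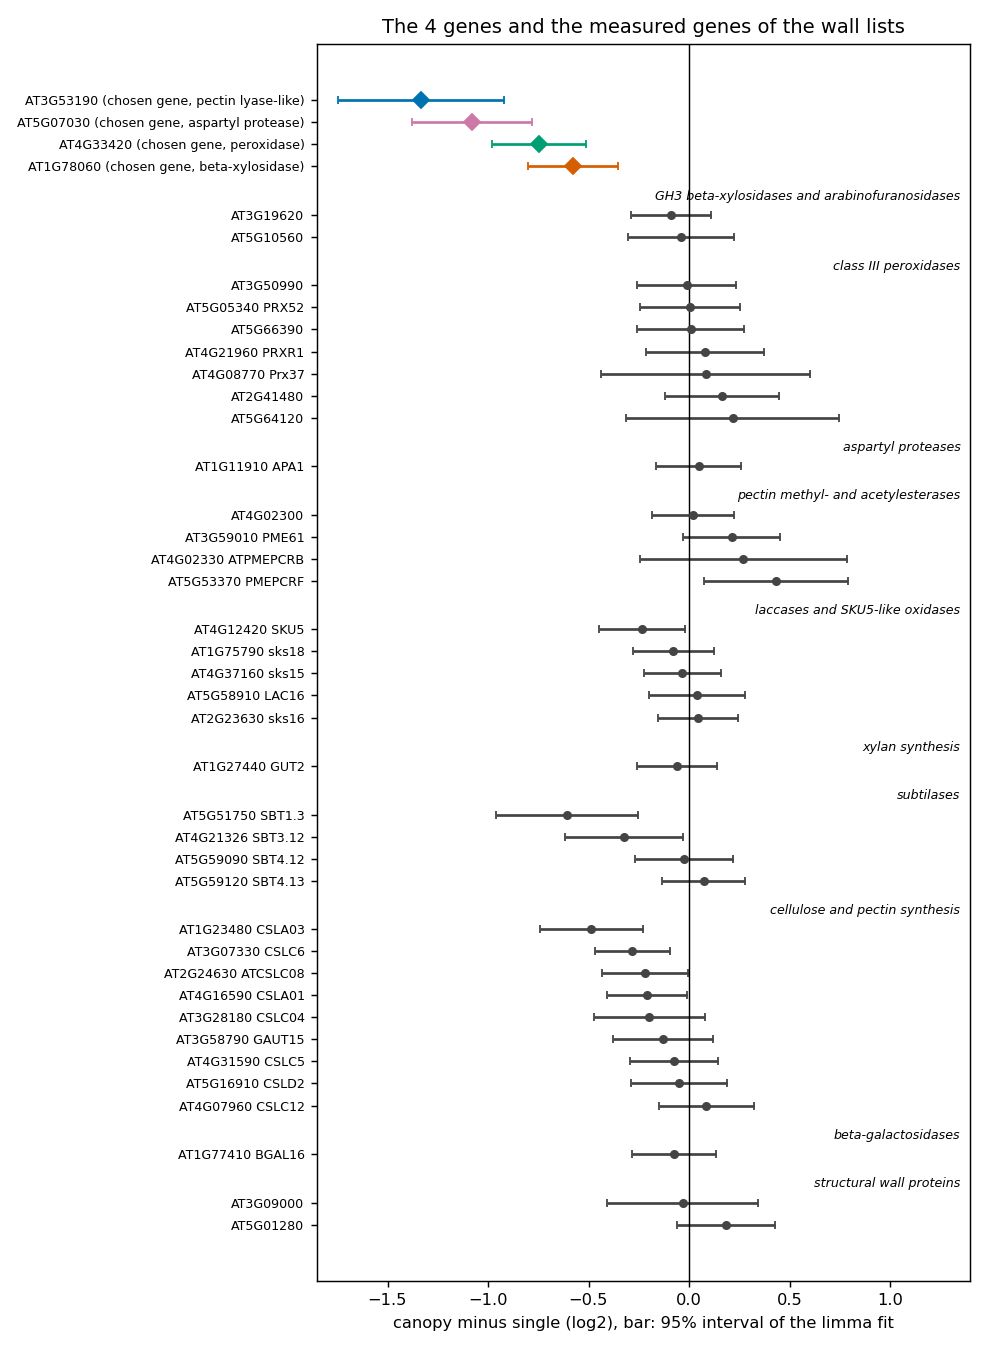
Canopy minus single difference (log2) with its 95% interval from the limma fit, for the 4 chosen genes (coloured diamonds) and the 36 measured genes of the lists (grey circles, grouped by list). The 4 chosen genes were selected for their decrease and lie from -1.33 to -0.58, while the list genes lie from -0.61 (SBT1.3) to 0.43 (PMEPCRF).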

How the data were processed

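The deposited values are RMA expression values, which the authors computed with R 2.15.0, according to the submitters' processing notes. RMA corrects background, gives all arrays one distribution and combines the probes of each set into 1 value. Neither log base, offset nor chip definition is given in the sources used here. The deposited values were read here as log2, and the array medians were 1.29 to 1.32. Levels of different genes were set side by side only as places on the scale of the arrays, which depend on the probes too. The number of arrays limits the precision, and replicates are pools of plants.

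All 22746 probe sets other than 64 Affymetrix controls were fitted with limma 3.58.1 (lmFit, eBayes, two-sided, R 4.3.3) for canopy minus single, without a replicate block, with Benjamini-Hochberg adjustment over all of them. Fold changes are antilogs of log2 differences. Probe sets were named by the platform annotation and the RefSeq table of TAIR10.1 (13436 of 13513 1-gene probe sets matched), and each gene was followed by its probe set of highest mean. Family names of the 4 genes come with the choice of genes; list words were matched on symbols and synonyms because these tables hold no descriptions, and 3 of the 12 lists were added once the names were seen. In each list the called genes and the 2 with the smallest p were named, as were the 2 genes nearest to each of the 4 and their neighbours in gene order; PRXR1 was named after its values were seen. The 4 genes and the lists were chosen with earlier results of these data known.

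Same-numbered arrays did not pair: their deviations from the group means correlated at 0.0024, 0.0989 and -0.064 across probe sets.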

Additional observations from a re-analysis of the deposited data

How the results depend on the processing

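Leaving out 1 array moved the difference of AT3G53190 between -1.47 and -1.15, of AT5G07030 between -1.22 and -0.97, of AT4G33420 between -0.82 and -0.67 and of AT1G78060 between -0.66 and -0.54 (log2). A repeated quantile normalization and array weights moved none of the 4 by more than its SD within groups. The replicate block cannot change a difference in this balanced design, equal array medians shift every gene by 0.022, and groups that do not overlap fix the direction, so these show no stability. The 4 genes were 0 to 3 of the calls when 1 array was left out: 0 without canopy replicate 2 or single replicate 1, 2 or 3, and 3 without canopy replicate 1 or 3. Each locus had 1 probe set, so averaging probe sets could not give another value.

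All probe sets called numbered 97 higher and 57 lower. The replicate block gave 39 and 24, an adjusted p under 0.1 gave 188 and 181, 1-gene probe sets alone gave 36 and 17, and robust moderation with an intensity trend gave 151 higher. Leaving out 1 array gave 16 to 94 higher and 1 to 65 lower. Of the list genes 0 were called in any of these. Signs turned for 3 of the 17 named list genes, none of them called. Leaving out 1 array gave -0.16 to 0.040 for AT5G10560, positive without canopy replicate 2 (0.00038) or 3, and -0.10 (without canopy replicate 1) to 0.41 for AT5G64120. It gave -0.15 to 0.18 for AT3G09000, positive without canopy replicate 2 (0.0011) or single replicate 1, and a repeated quantile normalization gave 0.012. By deviations from group means, 0 of the 8 nearest pairings were found again. Leaving out 1 array moved 11 of the 17 by over 1.5 times or turned their sign, among them AT2G41480 (0.057 to 0.25), PME61 (0.13 to 0.26) and AT5G01280 (0.11 to 0.24). The cause of these changes was not tested. No depth is known for arrays, and the peroxidase gene lies closest to the lower end of the scale.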
